A study of Mus musculus with 8 samples.

Results

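The expression of 44 genes of apoptosis, the p53 pathway and growth arrest was examined in mouse cortex, comparing mice that express a cytoplasmic form of human TDP-43 with nontransgenic controls. The members were chosen by gene symbol (BCL2 family, caspases, p53 pathway, Gadd45 and Plk genes), and a symbol was linked to its row of values by the transcript identifier. Of the 44 genes, 38 had a row among the 10601 genes to which the deposited tables give a symbol, and 37 of these passed the filter on low values that left 10588 genes to test. The other 6 carried no symbol there and were not looked for among the transcripts without one, so no value is given for them. They were Trp53, which encodes p53 itself, Bbc3 and Bcl2l11, which encode the BH3-only proteins Puma and Bim, the caspase genes Casp6 and Casp8, and Gadd45a. Plk3 had a row but stayed just below the filter.

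Bigenic mice (Camk2a-tTa / deltaNLS-hTDP-43, n = 4) carried 2 transgenes on a C57BL/6 background. The Camk2α promoter, active mainly in excitatory forebrain neurons, drove the tetracycline transactivator, which in turn switched on human TDP-43 whose nuclear localization signal is disabled, once doxycycline was absent. Nontransgenic mice (n = 4) of the same strain, born to heterozygous parents, carried neither transgene, so the action of the transactivator and that of the TDP-43 transgene cannot be told apart in this comparison. In both groups the doxycycline diet ended at 28 days of age, and poly(A)+ RNA of the right cortex was taken 10 days later and sequenced as 1 library per mouse. The values are the authors' normalized counts, that is, reads per gene scaled by a factor for each mouse and rounded.

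In the mitochondrial route to apoptosis, BCL2-type survival proteins hold the pore formers Bax and Bak in check and BH3-only proteins release them. Proteins that then leak from the mitochondrion switch on caspases through Apaf1. The transcription factor p53, kept low by Mdm2 and Mdm4, induces the cell cycle inhibitor p21 (Cdkn1a) and other targets after DNA damage, and cyclin D and the retinoblastoma protein govern the step that these inhibitors block. Neurons no longer divide, but they keep many of these genes active, and several of them, such as the Gadd45 and Plk genes, are also known to respond to neuronal activity.

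Column totals were between 20.1 and 22 M normalized counts, made from an estimated 10.6 to 31.9 M reads on genes per mouse. Bigenic mouse 2 was the shallowest, with 1 read worth 2.07 normalized counts, and in that mouse 3 reads came to 6.20 normalized counts, against 1.94 to 3.97 in the other 7. For nontransgenic mouse 2 a smaller worth of 1 read would account for the low values equally well, so its depth may exceed this estimate. Bigenic mouse 2 was the farthest from its group median for 25 of the 38 members. Every member with a row lay above these floors in every mouse, the lowest value being 29 for Plk5. The mice are numbered here only to tell them apart.

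In the test across all genes (limma on log2(normalized count + 1), Benjamini-Hochberg adjusted p under 0.05), 14 of the 37 members (37.8%) passed, where 35.9% of all genes tested did. Of these, 8 members (21.6%) were higher in bigenic mice and 6 (16.2%) lower, against 20.5% and 15.4% of all genes. For 17 members (9 higher, 8 lower) the 4 bigenic values did not overlap the 4 nontransgenic ones, as was the case for 39.0% of all genes (22.3% higher, 16.7% lower). The estimate was above 0 for 22 members, where 53.3% of all genes had one above 0, and 19 members had an unadjusted p under 0.05, as did 46.7% of all genes. Without the shallow bigenic mouse 2, 10 members were higher and 7 lower, and 45.6% of all genes passed. The median log2(fold change) of the members was 0.11 and that of all genes 0.03, and the median size without sign was 0.27 for the members and 0.25 for all genes. The list as a whole moved about as much as genes in general, and the results below concern single genes. Differences are bigenic minus nontransgenic, errors beside means are SDs over 4 mice, and brackets hold 95% confidence intervals.

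**Figure D1:**
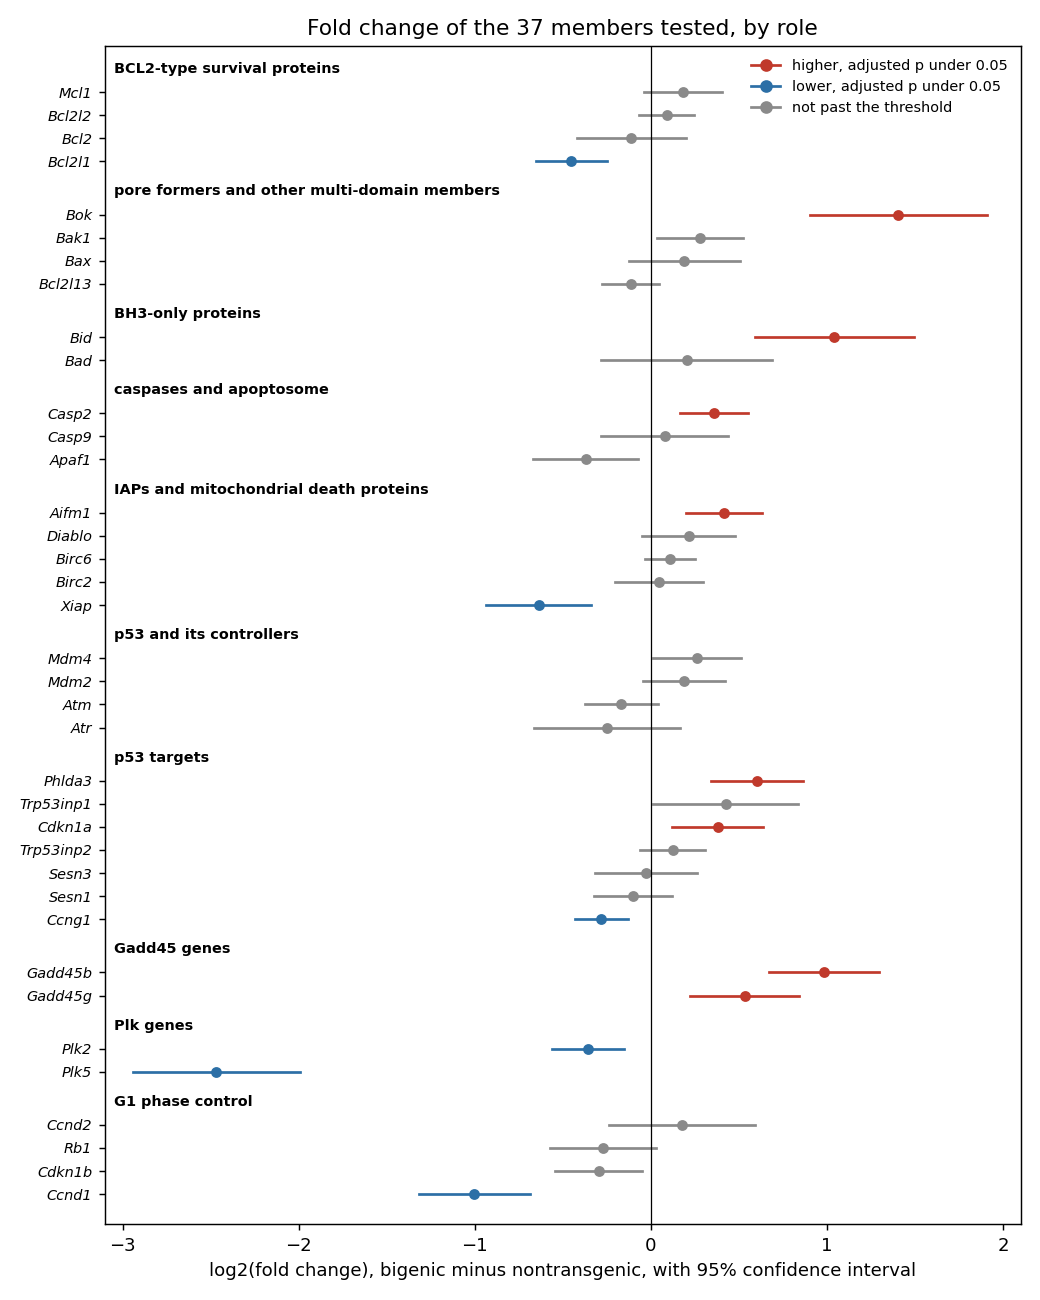
Log2(fold change) of the 37 members tested (x axis, bigenic minus nontransgenic, points with 95% confidence intervals), grouped by the role of the protein. Red points passed the test as higher, blue points as lower and grey points did not pass; the estimates run from -2.47 for Plk5 to 1.41 for Bok.

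Among the BCL2-type survival genes, Bcl2l1 fell and the other 3 did not pass the test. Bcl2l1, which encodes Bcl-xL, the main survival protein of adult neurons, had 1636, 1369, 1596 and 1435 normalized counts in bigenic mice and 1965, 1969, 1986 and 2333 in nontransgenic mice. All bigenic values lay below all nontransgenic ones. The log2(fold change) was -0.45 ± 0.09 (SE, [-0.65, -0.25], limma adjusted p = 0.00423). Bcl2, the founding member, had 645, 871, 974 and 986 normalized counts in bigenic mice and 961, 830, 886 and 1039 in nontransgenic mice. These ranges overlapped widely, and the estimate was -0.11 [-0.42, 0.20] (limma adjusted p = 0.556). Bcl2l2 (Bcl-w) and Mcl1 had estimates of 0.09 and 0.18, neither past the threshold.

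Of the multi-domain members, Bok rose and Bax, Bak1 and Bcl2l13 did not pass. Bok, a pore former found largely at the endoplasmic reticulum, had 875, 1646, 831 and 850 normalized counts in bigenic mice and 287, 379, 461 and 408 in nontransgenic mice. Even the lowest bigenic value was above the highest control, and bigenic mouse 2 stood well above the other 3. The means, 1050 ± 397 and 383.8 ± 72.9, gave a ratio of 2.74, and the log2(fold change) was 1.41 ± 0.23 ([0.90, 1.91], limma adjusted p = 0.00135), the 35th highest of the 10588 genes. Without bigenic mouse 2 it was 1.17 and still passed. Bax, the pore former most often followed in neurons, had 412, 560, 369 and 410 normalized counts in bigenic mice and 333, 373, 372 and 445 in nontransgenic mice. The groups overlapped, and the estimate was 0.19 [-0.12, 0.50] (limma adjusted p = 0.314). The ratio of Bax to Bcl2 normalized counts within a mouse was 0.519 ± 0.141 in bigenic and 0.411 ± 0.0448 in nontransgenic mice, with overlapping ranges. Bak1 had an estimate of 0.28 (limma adjusted p = 0.0717), which passed when bigenic mouse 3 was left out, at 0.0489. Bcl2l13, a mitochondrial relative of Bcl2, had -0.11 and did not pass, although its groups did not overlap.

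Both BH3-only genes with a row had estimates above 0, and of them Bid rose. Bid, which links death receptors to the mitochondrion when it is cut by caspases, had 387, 290, 389 and 403 normalized counts in bigenic mice and 222, 207, 181 and 116 in nontransgenic mice. The groups stood apart, with a mean of 367.2 ± 52.0 against 181.5 ± 46.8, a ratio of 2.02. The log2(fold change) was 1.04 ± 0.20 (limma adjusted p = 0.00359), and it passed with any 1 mouse left out. The exons of Bid and Bcl2l13 overlap tail to tail by 628 bases on opposite strands of chromosome 6, and counting by strand is not stated in the sources used here, so reads in that stretch cannot be assigned to one gene. Bad, which binds Bcl-xL, had an estimate of 0.20 (limma adjusted p = 0.487).

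Of the 3 caspase and apoptosome genes tested, Casp2 rose slightly and Casp9 and Apaf1 did not pass. Casp2, an initiator caspase tied to the p53 response, averaged 346.2 ± 16.1 normalized counts in bigenic and 269.8 ± 11.1 in nontransgenic mice (log2(fold change) 0.36 ± 0.09, limma adjusted p = 0.0108). The Casp9 estimate was 0.08, and its values in nontransgenic mice spread from 466 to 770. Apaf1, the scaffold that activates caspase-9, had an estimate of -0.37 (limma adjusted p = 0.0553), which passed without bigenic mouse 1 at 0.0472.

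Among the inhibitor of apoptosis genes and the mitochondrial death proteins, Xiap fell, Aifm1 rose and Birc2, Birc6 and Diablo did not pass. Xiap, the most direct caspase inhibitor of its family, had 2399, 1683, 2595 and 2516 normalized counts in bigenic mice and 3856, 3535, 3493 and 3225 in nontransgenic mice. No bigenic mouse reached the nontransgenic range, and bigenic mouse 2 was the lowest. The log2(fold change) was -0.64 ± 0.13 ([-0.93, -0.34], limma adjusted p = 0.00537), and -0.49 without bigenic mouse 2. Aifm1, which encodes the flavoprotein AIF that serves the respiratory chain and can act in caspase-independent death, had 769, 877, 766 and 774 normalized counts in bigenic mice and 605, 570, 533 and 688 in nontransgenic mice. The groups did not overlap, and the log2(fold change) was 0.41 ± 0.10 ([0.20, 0.63], limma adjusted p = 0.0085). Diablo, whose product Smac releases caspases from Xiap, had 0.22, and the inhibitors Birc2 and Birc6 had 0.05 and 0.11, none past the threshold.

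**Figure D2:**
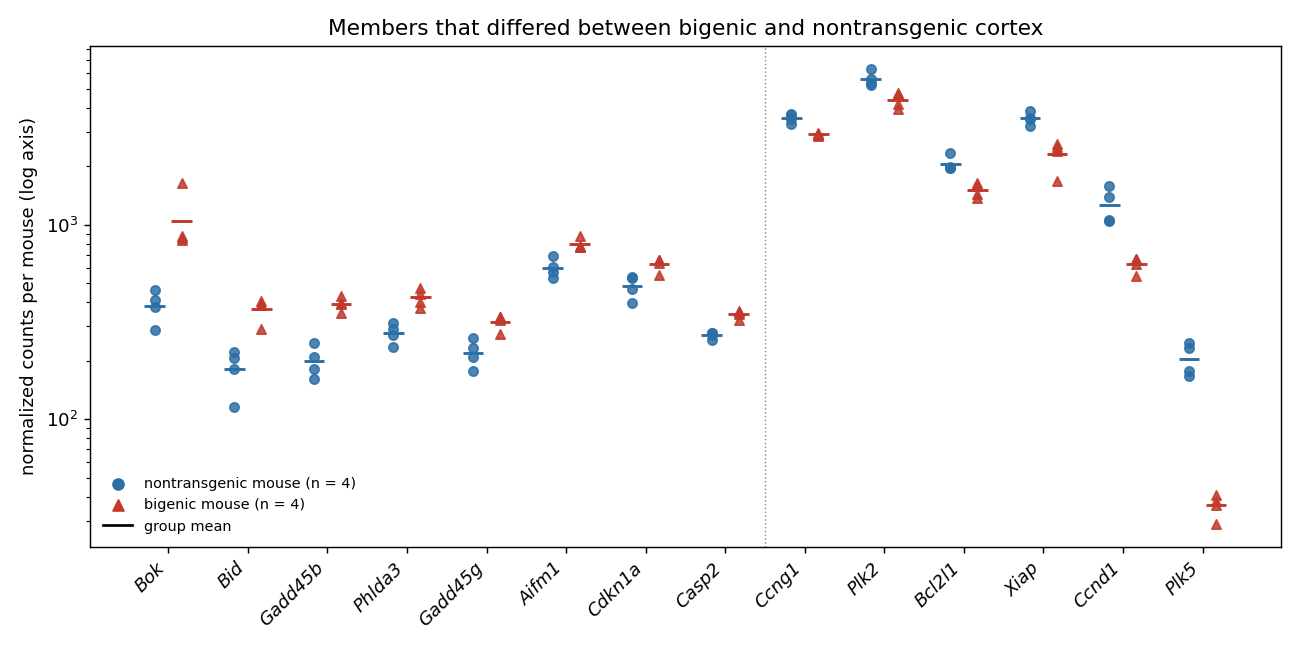
Normalized counts (y axis, log scale) of the 14 members that passed the test, with 1 circle per nontransgenic mouse, 1 triangle per bigenic mouse and a line at each group mean (n = 4). Genes left of the dotted line were higher in bigenic mice and genes right of it lower; in none of the 14 do the groups overlap, and the gap on this scale is widest for Plk5 (29 to 41 against 166 to 246).

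None of the 4 tested controllers of p53 passed the test. Mdm2, the ubiquitin ligase that degrades p53 and is itself a p53 target, had 1546, 1886, 1625 and 1647 normalized counts in bigenic mice and 1325, 1394, 1419 and 1758 in nontransgenic mice. In nontransgenic mice, 3 values lay below all bigenic ones and 1 among them, and the log2(fold change) was 0.19 [-0.04, 0.42] (limma adjusted p = 0.181). It passed when nontransgenic mouse 4 was left out (0.28, limma adjusted p = 0.0444). Mdm4, the partner that masks the activation domain of p53, had 0.26 (limma adjusted p = 0.0951) and passed without bigenic mouse 2 (0.36, limma adjusted p = 0.00407). The kinases Atm and Atr, which signal DNA breaks and stalled replication to p53, had -0.17 and -0.25.

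Of the 7 genes grouped as p53 targets and p53-linked proteins, with Mdm2 counted among the controllers above, Phlda3 and Cdkn1a rose, Ccng1 fell and 4 did not pass. Cdkn1a (p21), the classical target that arrests the cell cycle, had 638, 550, 655 and 661 normalized counts in bigenic mice and 396, 465, 541 and 532 in nontransgenic mice. The lowest bigenic value, 550 in mouse 2, was just above the highest control, 541. The log2(fold change) was 0.38 ± 0.12 ([0.12, 0.64], limma adjusted p = 0.0286). The call was lost without bigenic mouse 1, 3 or 4 or nontransgenic mouse 1 or 2, with adjusted p between 0.0594 and 0.0769, so it was kept in 3 of 8 such fits. Phlda3, a target that restrains Akt signalling, had 375, 441, 401 and 474 normalized counts in bigenic mice and 236, 291, 313 and 272 in nontransgenic mice. Its groups did not overlap, and the log2(fold change) was 0.60 ± 0.12 ([0.34, 0.87], limma adjusted p = 0.00354). Ccng1, a p53 target that encodes cyclin G1, moved the other way, from 3541 ± 181 normalized counts in nontransgenic to 2912 ± 43 in bigenic mice (log2(fold change) -0.28 ± 0.07, limma adjusted p = 0.00961). Trp53inp1, a stress protein that assists p53, had 0.43 (limma adjusted p = 0.0963). In 3 bigenic mice it read 644, 526 and 544 and in the shallow mouse 2 only 335, against 335 to 442 in nontransgenic mice, and without mouse 2 the estimate was 0.62 (limma adjusted p = 0.00114). Sesn1 and Sesn3, which curb mTOR signalling, and Trp53inp2, an autophagy protein, had -0.10, -0.03 and 0.12.

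A p53 response element is a pair of decamers, and the promoter windows of the members (RefSeq, GRCm38.p6, 250 bases before to 50 bases after each start, 300 in all) were searched on both strands for the consensus decamer. Windows were found for 40 of the 44 members, 52 windows in all; Rb1, Trp53inp1, Ccnd1 and Ccnd2 had none. The decamer occurred in 8 of the 52 windows (15.4%) and in 8.36% of all 32851 windows. It lay in the windows of Bax, Birc2, Ccng1, Cdkn1a, Gadd45a, Mdm2, Sesn1 and Trp53. Of these 8 genes 1 rose, 1 fell, 4 did not pass and 2 were not tested. The windows of the p53 targets that rose and fell with a match are shown, with the decamers in capitals. That of Cdkn1a (chr17:29090729-29091028, plus strand, 1 of its 2 windows) holds 2 exact matches, beginning 73 and 51 bases before the start. They are not adjacent. The bases directly after the later match, tgacatgttc, miss the consensus by 1 letter and stay in lower case. That of Ccng1 (chr11:40755237-40755536, minus strand) holds 1, beginning 185 bases before the start.
Cdkn1a: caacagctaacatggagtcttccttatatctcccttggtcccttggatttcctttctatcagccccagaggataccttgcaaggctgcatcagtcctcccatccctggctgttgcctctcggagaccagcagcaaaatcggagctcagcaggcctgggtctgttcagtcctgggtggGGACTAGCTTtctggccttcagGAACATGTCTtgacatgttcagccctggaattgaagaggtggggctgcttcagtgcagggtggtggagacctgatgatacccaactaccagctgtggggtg
Ccng1: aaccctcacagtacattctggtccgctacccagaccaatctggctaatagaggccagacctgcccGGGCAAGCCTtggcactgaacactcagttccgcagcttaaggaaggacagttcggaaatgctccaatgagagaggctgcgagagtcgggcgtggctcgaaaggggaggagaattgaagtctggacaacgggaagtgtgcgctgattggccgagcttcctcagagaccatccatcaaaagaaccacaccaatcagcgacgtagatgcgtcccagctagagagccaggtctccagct
Cdkn1a rose and Ccng1 fell, and Bax, Birc2, Mdm2 and Sesn1, each with 1 exact match, did not pass. Decamers that miss the consensus by a letter were not searched for. A match of letters describes the window and does not show that p53 binds there.

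Both Gadd45 genes with a row rose. Gadd45b, a stress sensor that is also induced by neuronal activity, had 395, 430, 350 and 391 normalized counts in bigenic mice and 161, 209, 182 and 246 in nontransgenic mice. The lowest bigenic value was well above the highest control. The ratio of the means was 1.96, and the log2(fold change) was 0.98 ± 0.14 ([0.67, 1.29], limma adjusted p = 0.000715). Gadd45g, its close relative, had 325, 335, 273 and 336 normalized counts in bigenic mice and 176, 232, 210 and 263 in nontransgenic mice. These groups were separate but near each other, with 273 against 263 at the border, and the log2(fold change) was 0.53 ± 0.14 ([0.23, 0.84], limma adjusted p = 0.0144). Both passed with any 1 mouse left out. Their promoter windows (RefSeq, GRCm38.p6) are shown because the pair moved together. Both hold TATAAA and the E-box CACGTG, in capitals. In the Gadd45b window (chr10:80929841-80930140, plus strand) these begin 46 and 185 bases before the start, and in the Gadd45g window (chr13:51846425-51846724, plus strand) 27 and 142 bases before it.
Gadd45b: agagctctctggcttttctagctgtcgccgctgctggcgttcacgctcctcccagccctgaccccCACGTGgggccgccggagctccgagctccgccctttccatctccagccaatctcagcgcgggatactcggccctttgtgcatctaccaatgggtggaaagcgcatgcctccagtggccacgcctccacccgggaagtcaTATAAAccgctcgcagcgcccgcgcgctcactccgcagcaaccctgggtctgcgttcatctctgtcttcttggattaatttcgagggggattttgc
Gadd45g: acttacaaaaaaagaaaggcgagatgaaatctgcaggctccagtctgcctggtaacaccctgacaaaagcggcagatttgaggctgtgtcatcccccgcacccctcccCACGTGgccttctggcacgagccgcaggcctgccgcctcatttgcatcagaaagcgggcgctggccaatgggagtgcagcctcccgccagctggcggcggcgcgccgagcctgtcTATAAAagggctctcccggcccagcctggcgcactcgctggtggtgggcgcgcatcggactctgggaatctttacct
On either strand, TATAAA occurred in 13.6% and CACGTG in 7.15% of all windows. Each was found in 5 of the 52 member windows (9.62%), in windows of 5 members. Trp53, which was not tested, also had both, and the share of all windows that hold both was not counted.

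The Plk genes tested both fell, by very different amounts. Plk5, a polo-like kinase family gene active mainly in brain, had 41, 29, 38 and 36 normalized counts in bigenic mice and 166, 246, 177 and 231 in nontransgenic mice. Every bigenic mouse was far below every control. The means of 36.0 ± 5.1 and 205 ± 39.4 differed by a factor of 5.69, and the log2(fold change) of -2.47 ± 0.21 ([-2.94, -1.99], limma adjusted p = 4.78e-05) was the 4th lowest of the 10588 genes. Plk5 reached the filter on low values only in nontransgenic mice, so its test and its rank depend on the group where it was higher. Plk2, which trims synapses after sustained activity, fell from 5623 ± 505 to 4395 ± 404 normalized counts (log2(fold change) -0.36 ± 0.09, limma adjusted p = 0.0144). Plk3, below the filter, had 110, 207, 170 and 198 normalized counts in bigenic mice and 86, 142, 128 and 210 in nontransgenic mice. The groups overlapped, and on the authors' gene list, which keeps it, the estimate was 0.30 ± 0.28 (limma adjusted p = 0.426). The Plk2 window (RefSeq, GRCm38.p6, chr13:110394794-110395093, plus strand) is shown for its full cyclic AMP response element TGACGTCA, in capitals, which begins 62 bases before the start.
Plk2: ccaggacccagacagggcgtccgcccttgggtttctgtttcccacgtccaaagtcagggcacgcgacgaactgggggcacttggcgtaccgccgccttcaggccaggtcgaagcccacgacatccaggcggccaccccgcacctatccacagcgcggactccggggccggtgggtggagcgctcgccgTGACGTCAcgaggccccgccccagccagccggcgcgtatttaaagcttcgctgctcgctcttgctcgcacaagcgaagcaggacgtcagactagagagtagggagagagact
This element occurred in 1.79% of all windows and in 3 of the 52 member windows (5.77%). These were windows of Birc2, Plk2 and Trp53inp2, and of these genes Plk2 passed the test.

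Of the 4 genes of G1 control, Ccnd1 fell and Ccnd2, Cdkn1b and Rb1 did not pass. Ccnd1, which encodes cyclin D1, the cyclin that starts the phosphorylation of the retinoblastoma protein, had 663, 544, 628 and 664 normalized counts in bigenic mice and 1041, 1580, 1395 and 1063 in nontransgenic mice. The nontransgenic values were themselves widely spread, yet the lowest of them was far above the highest bigenic value. The means were 624.8 ± 56.4 and 1270 ± 263, and the log2(fold change) was -1.0 ± 0.14 ([-1.32, -0.69], limma adjusted p = 0.000688). Its exons share 818 bases with Oraov1 on the other strand. Ccnd2, the second D-type cyclin, had an estimate of 0.18 (limma adjusted p = 0.484). Cdkn1b, the inhibitor p27, had -0.30 (limma adjusted p = 0.0593), with bigenic values from 639 to 887 all below the nontransgenic range of 948 to 1022. Without bigenic mouse 2, the lowest, it was -0.18 and passed (limma adjusted p = 0.0304). Rb1, the retinoblastoma gene, had -0.27 (limma adjusted p = 0.14).

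**Figure D3:**
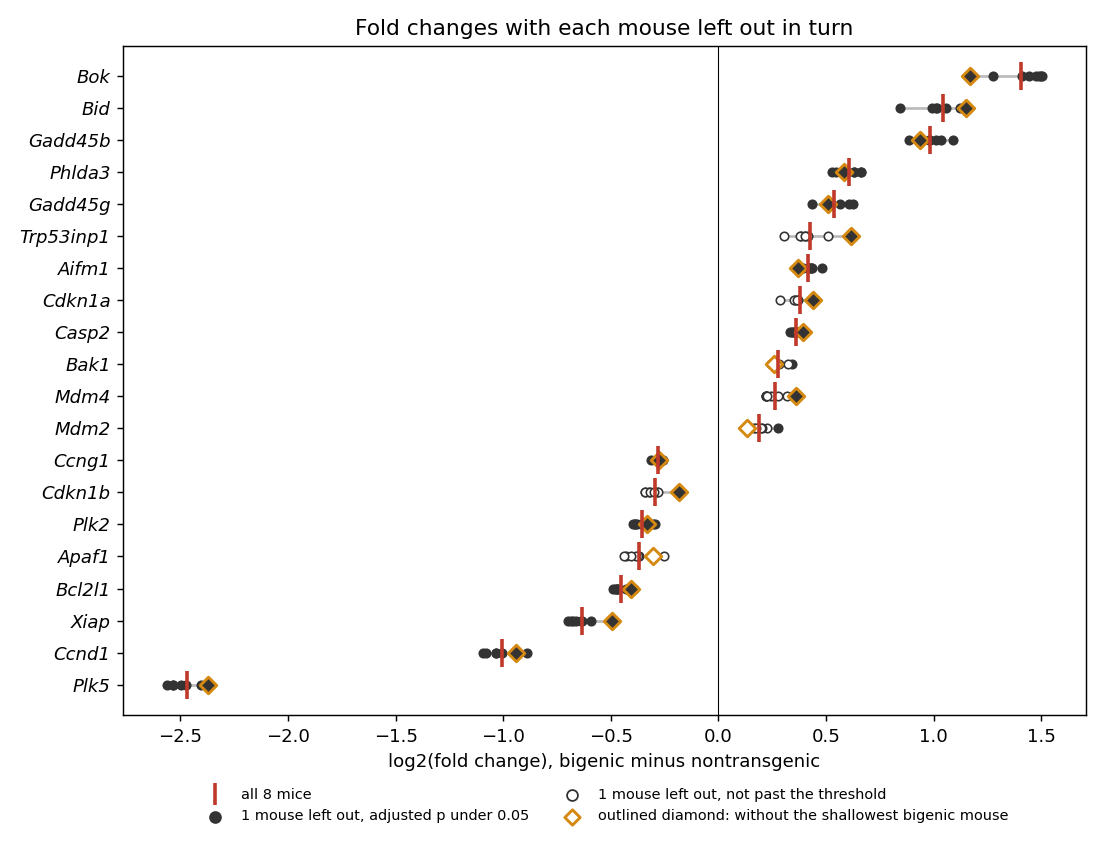
Log2(fold change) (x axis, bigenic minus nontransgenic) of the 14 members that passed and of 6 that passed in at least 1 fit with a mouse left out. Red ticks are all 8 mice, filled circles are fits that passed, open circles fits that did not, and outlined diamonds mark the fit without bigenic mouse 2; of the 14, Cdkn1a alone has open circles.

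The members differed widely in level. Per kilobase of annotated exon, the highest in nontransgenic mice were Plk2, with 2007 normalized counts per kilobase, Ccng1 with 1008 and Bcl2l2 with 794. The lowest were Casp2 with 38.6, Apaf1 with 48.0 and Bid with 51.1. On this scale Bok went from 268 normalized counts per kilobase in nontransgenic to 734 in bigenic mice, a level above that of Bax (327 in bigenic mice), whereas in nontransgenic mice the 2 genes were at similar levels (Bax 284). Plk5 went from 76.5 to 13.4. Exon lengths here are those of all annotated transcripts of a gene, which need not be the exons that the authors counted. Levels of different genes are therefore only roughly comparable.

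The rest of each pathway was read from 3 lists. Of 32 other apoptosis genes tested, 6 were higher and 6 lower in bigenic mice (37.5% called), with a median log2(fold change) of -0.01. The largest change was that of Hrk, a neuronal BH3-only gene that binds Bcl-xL, which went from 1721 ± 228 to 528.8 ± 129 normalized counts (log2(fold change) -1.73 ± 0.18, limma adjusted p = 0.000142). Of the others called lower, Aifm3 had -0.79, the mitophagy receptor Bnip3l -0.63 and the calcium-binding Pdcd6 -0.60. The largest estimates among the genes called higher were 0.78 for Pdcd11, 0.78 for Bcap31, an endoplasmic reticulum membrane protein, 0.68 for Bat3 and 0.58 for Dffa, the inhibitor of the caspase-activated DNase.

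Of 40 other p53 pathway genes tested, 6 were higher and 6 lower (30% called), with a median of -0.04. Aen, a p53-induced nuclease, rose from 148 ± 7.6 to 357.5 ± 60.6 normalized counts (log2(fold change) 1.25 ± 0.13, limma adjusted p = 0.000156). Sesn2, the stress-induced sestrin, had 1.03, Fdxr, a mitochondrial reductase, 0.75 and 9630033F20Rik 0.60. On the lower side Trp53i11 had -0.62, the deubiquitinase Usp7, which acts on p53 and Mdm2, -0.48, the DNA damage sensor Ddb2 -0.42 and 5730403B10Rik -0.35. Aen, Sesn2 and Fdxr reached the filter on low values only in bigenic mice, and Ddb2 only in nontransgenic mice. Each of these thus entered the test through the group where it was higher. Of the 8 genes named, Fdxr, Ddb2 and 5730403B10Rik lost their calls in 3, 4 and 4 of the 8 fits with a mouse left out. Leaving out nontransgenic mouse 1, 2 or 3 brought the number called higher down to 3, and leaving out nontransgenic mouse 1 or 3 the number called lower to 3.

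Of 25 other growth arrest and G1 genes tested, 7 were higher and 2 lower (36% called), with a median of 0.13. Max, the partner that Myc needs to bind DNA, went from 824.8 ± 28.8 to 3648 ± 335 normalized counts (log2(fold change) 2.14 ± 0.08, limma adjusted p = 9.96e-07), a ratio of 4.42. Also called higher were Gas2l1 with 0.95, E2f1, a factor that drives entry into S phase, with 0.57 and the Myc antagonist Mxi1 with 0.52, the last in 5 of 8 fits with a mouse left out. Gas7, a gene of neurite outgrowth, had -0.60 and Fbxw7, a ubiquitin ligase subunit for cyclin E, -0.43. The number called higher was 4 without nontransgenic mouse 2 and 3 without nontransgenic mouse 3.

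**Figure D4:**
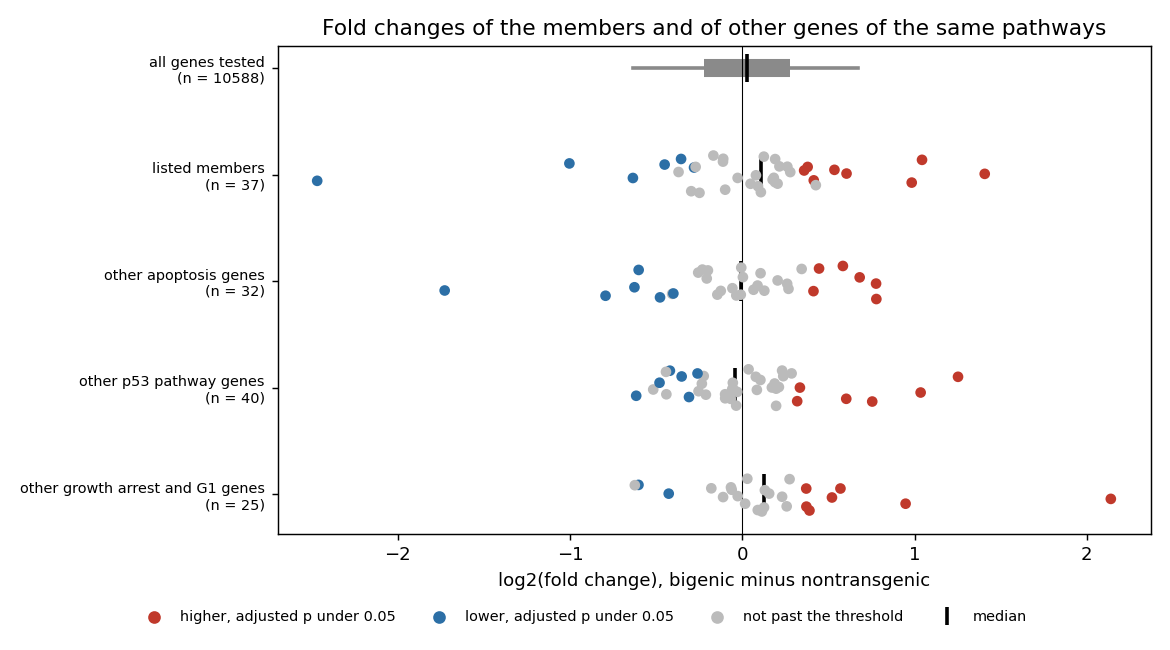
Log2(fold change) (x axis, bigenic minus nontransgenic) of all 10588 genes tested (grey box, 25th to 75th percentile; line, 5th to 95th), of the 37 members and of the other genes of the 3 pathways, with 1 point per gene and a tick at each median. Each list spreads to both sides of 0, and the medians lie between -0.04 and 0.13.

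Markers of cell types were read in the same test, in which 35.9% of all genes passed. Neuron markers had 2 genes higher and 6 lower of 11 tested (median -0.32, lowest Camk2a with -0.88, highest Thy1 with 0.77). Their summed level was 159588 to 211260 normalized counts in bigenic and 201109 to 219119 in nontransgenic mice. Of 10 astrocyte markers 5 were lower and none higher (Aqp4 -0.63; sums of 138040 to 165050 against 174655 to 190029), and the same counts held for 10 microglia markers (P2ry12 -0.65; 6116 to 8135 against 8231 to 9539). Oligodendrocyte markers had 1 of 11 higher (Mobp 0.60; 67029 to 89772 against 68671 to 85881) and endothelial markers 1 of 8 lower (Flt1 -0.26; 5467 to 6074 against 5802 to 7384). Of 12 choroid plexus markers 4 were tested, of which Ttr (4.34), Clic6 (2.40) and Kl (2.25) were higher, with sums of 13923 to 28918 against 6517 to 8161. Many of these calls were not stable when 1 mouse was left out. The neuron markers called lower numbered 2 or 3 whichever mouse was left out, apart from bigenic mouse 2 (6), and the astrocyte markers called lower 3 without bigenic mouse 1 or any nontransgenic mouse. The microglia markers called lower numbered 4 to 8, the most without bigenic mouse 1, and the choroid plexus markers called higher 2 to 4. Mobp kept its call in 4 and Flt1 in 2 of the 8 fits, so for oligodendrocyte and endothelial markers the count fell to 0 in the others. The part of these shifts in the members' differences was not tested. In bulk cortex, fewer cells of a type and less RNA per cell cannot be told apart.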

How the data were processed

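RNA-seq was carried out on right cortex of 4 bigenic and 4 nontransgenic mice. According to the study's methods and the submitters' processing notes, the authors trimmed adaptors with cutadapt, mapped 50-bp reads to mm9 with Bowtie 0.12.7, kept uniquely mapping reads, used bedtools to count them per exon and summed the exons of a gene. The deposited values for 28662 transcripts are a score, namely normalized counts scaled by the authors with a factor per mouse and rounded to whole numbers; the scaling method is not given in the sources used here, and count tests were not run. The columns of this table name the group of a mouse but not which labelled sample it is. A second deposited table with the authors' DESeq2 results (fold changes and p-values) was used only for gene symbols.

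Genes reaching 10 RPM, taken as normalized counts scaled to the column total, in 1 or more mice were kept (10588). Groups were compared by limma 3.58.1 (lmFit, eBayes with trend, two-sided, R 4.3.3) on log2(normalized count + 1), a scale that slightly understates changes of low genes, with Benjamini-Hochberg adjustment over all genes and a threshold of 0.05. What 1 read was worth was estimated per column from the steps between low values. In simulated counts with the same dispersion for every gene, limma called 100 of 100 genes changed 2-fold and 77 of 100 changed 1.5-fold. It called 13 of 10388 unchanged genes. The worth of 1 read was recovered in 8 of 8 simulated columns. These columns were simulated from the estimates themselves, so the doubt over nontransgenic mouse 2 could not be tested there. The read floors cover counting error only. Positions, exon lengths and overlaps come from GENCODE on mm9, and promoters from RefSeq on GRCm38.p6. The p-values set the difference between group means against the spread between these mice, with a variance moderated over all genes.

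The members, the other lists and the markers were chosen with earlier results of these data known. Values in every mouse are given for members with an adjusted p under 0.05 and an absolute log2(fold change) of at least 0.4 and for Mdm2, Cdkn1a, Bcl2 and Bax, and, chosen after their values were seen, for Plk3 and Trp53inp1. Of each other list, up to 4 called genes per direction are named, and of each marker list the called gene with the largest change. Alternatives were pseudocounts of 10 and 0.1, no filter, a filter in every mouse, rescaling to the same total, quantile normalization, array weights, leaving out each mouse and, added after seeing the data, the authors' gene list.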

Additional observations from a re-analysis of the deposited data

Results flagged for a closer look

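Among the 76 groups of 4 mice formed by the 38 members with a row, 8 held 1 mouse far from the other 3 (by Dixon's ratio of gap to range), where chance alone flags about 1 in 20, or 3.8 groups. Of the 8, 5 were bigenic mouse 2, the shallowest library. It was the highest for Bok (1646 normalized counts, the others 831 to 875) and Aifm1 (877, the others 766 to 774). It was the lowest for Bid (290, the others 387 to 403), Mdm4 (1228, the others 1568 to 1635) and Cdkn1b (639, the others 851 to 887). Bigenic mouse 3 was the lowest for Bak1 (229, the others 271 to 276). Nontransgenic mouse 4 was the highest for Bcl2l1 (2333, the others 1965 to 1986) and Birc2 (1568, the others 1213 to 1260). The calls of Bok, Aifm1, Bid and Bcl2l1 were kept without the mouse in question, whereas Mdm4, Cdkn1b and Bak1 passed when it was left out.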

How the results depend on the processing

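No paired analysis was possible because the columns carry no replicate number of the labels, so the fit with the replicate block was not run. No called member changed direction under any alternative. The estimate of Bcl2, which was not called, ran from -0.18 to 0.03 with a mouse left out. With limma's array weights, which gave bigenic mouse 2 the lowest weight, 3611 genes were called higher and 2844 lower, 13 members were higher, 10 other apoptosis genes lower, 13 other p53 pathway genes higher and 10 lower, and 13 other growth arrest genes higher and 6 lower. With the filter applied in every mouse 5 members were called higher, since Bid, Gadd45b and Gadd45g were then not tested. Plk5 was not tested either, and 6 members were called lower because Apaf1 then passed. Of all genes tested, 61.0% were called with array weights, and 37.7% of the 8980 kept by the filter in every mouse. With 1 mouse left out, 1510 to 2656 genes were higher and 1113 to 2126 lower, 7 to 10 members higher and 6 to 7 lower, 3 to 8 other p53 pathway genes higher and 3 to 6 lower, 5 to 7 other apoptosis genes higher and 6 lower in each fit, and 3 to 9 other growth arrest genes higher and 2 to 3 lower. The median log2(fold change) of the members was then 0.06 to 0.13. The cause of these shifts was not tested. Apart from these 4 untested members, the call of Cdkn1a alone was lost among the 14, and only with a mouse left out. With no filter 20912 genes were tested and 19.9% called. Plk5, the lowest member, had 29 to 41 normalized counts in bigenic mice, above the floors of 1.94 to 6.20.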

Other observations

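A pair of called members with opposite directions lies on chromosome 10. Plk5 (mm9, chr10:79819204-79828234, plus strand), which fell, and Gadd45b (chr10:80392836-80394949, plus strand), which rose, are 565 kb apart. Bid and Bcl2l13, whose exons overlap, had log2(fold changes) of 1.04 and -0.11.

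Bigenic mouse 2 was the farthest from its group median for 25 of the 38 members with a row, against 7, 3 and 3 for the other bigenic mice, and nontransgenic mouse 4 for 22 of 38. The ratio of Ccnd2 to Ccnd1 normalized counts within a mouse was 3.60 ± 1.01 in bigenic and 1.64 ± 0.68 in nontransgenic mice, with every bigenic value (2.81 to 5.08) above every nontransgenic one (1.18 to 2.64). The ratio of Bok to Bcl2l1 was 0.713 ± 0.328 in bigenic and 0.186 ± 0.036 in nontransgenic mice, also without overlap. Neither ratio was tested, and both pairs were chosen after their values were seen.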
